A study of Mus musculus with 24 samples.

Results

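The genes that encode the chains of collagen were examined in mouse lung RNA, and their levels were compared between young and old lungs after a sham operation, 1 h after the release of a clamped lung hilum and 1 day after it. Members were the genes whose symbol is Col, a type number, a and a chain number with nothing after it, and whose mean over the 24 libraries was at least 0.1 TPM (transcript abundance scaled for length and library size). There were 44 such symbols among 45777 genes, and 37 of them reached that level. The member just inside the threshold was Col24a1, with a mean of 0.107 TPM, and Col22a1 lay just outside it with 0.0952 TPM. The 37 members were 10 fibrillar genes, 8 genes of basement membrane types and 19 of other types. All animals were wild-type male C57BL6j mice, young at 8 to 12 weeks and old at 22 to 24 months. In the 4 reperfused groups the vessels and bronchus of the left lung were closed for 60 min before release, and the 2 sham groups are labelled as sham with no time given. Each of the 6 groups had 4 libraries. Whether the 4 are separate mice is not stated in the labels, and the p-values then cover only the spread from library to library, which may be technical.

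Collagen chains assemble in threes into a triple helix, and the type is set by which chains join. The fibrillar types I, III and V make the banded fibrils of the interstitium and of airway and vessel walls. Type IV makes the sheet of every basement membrane, and in the lung the epithelial and endothelial basement membranes fuse in the thin part of the air-blood barrier. Other types coat fibrils, form microfilaments or span cell membranes. Before secretion, chains are hydroxylated and folded by enzymes and chaperones of the endoplasmic reticulum, and outside the cell they are trimmed, cross-linked and degraded by further enzymes.

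The libraries held 27850677 to 44504824 estimated reads. The lung label matched the data, since the surfactant gene Sftpc averaged 10976 CPM (counts scaled for library size) in young sham and 9283 CPM in old sham lungs. CPM here is adjusted for composition by TMM factors and is used to compare 1 gene between groups. TPM, which is per length, is used to compare levels between genes. The young libraries taken after release differed from the others in how their levels ran with GC content. The rank correlation across genes of GC content with a library's deviation from the mean of all libraries was 0.192 to 0.431 in young 1 h and young 1 day libraries and -0.337 to -0.021 in the rest. Members had 44.87% to 64.32% GC, with a median of 56.35%. Where the removal of that trend ended a call of a member, this is stated beside the value or with the counts further below. For the other genes named, such as enzymes, receptors, proteases and cell markers, calls with that trend removed are not given. The same correlation with transcript length was 0.13 to 0.292 in young sham and 0.026 to 0.108 in old sham libraries. It was -0.19 to -0.107 in young 1 day and -0.131 to -0.002 in old 1 day libraries. With the length trend removed, 21 calls of members over all comparisons were lost, and these are not marked beside each value. The share of mitochondrial transcripts was 0.758% to 1.49% in the young reperfused libraries and 2.47% to 4.26% in the others, and its part in the results was not tested.

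In young sham lungs the basement membrane genes Col4a1 and Col4a2 had the highest levels, at 590.4 and 521 TPM. The type III gene Col3a1 followed at 394 TPM, then Col1a2 at 329, Col6a1 at 300.4, Col1a1 at 263 and Col6a2 at 248 TPM. The summed level of all members was 3341 ± 324 TPM (SD, n = 4). Basement membrane genes made 42.4 ± 3.77% of that sum, fibrillar genes 32.8 ± 2.43% and other types 24.8 ± 2.59% (SD, n = 4). At the lower end stood genes such as Col2a1, the chain of cartilage collagen, at 0.0754 TPM and Col6a6 at 0.188 TPM. Col2a1 was listed at 0 in all 4 old sham libraries, so no fold is given for it.

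**Figure D1:**
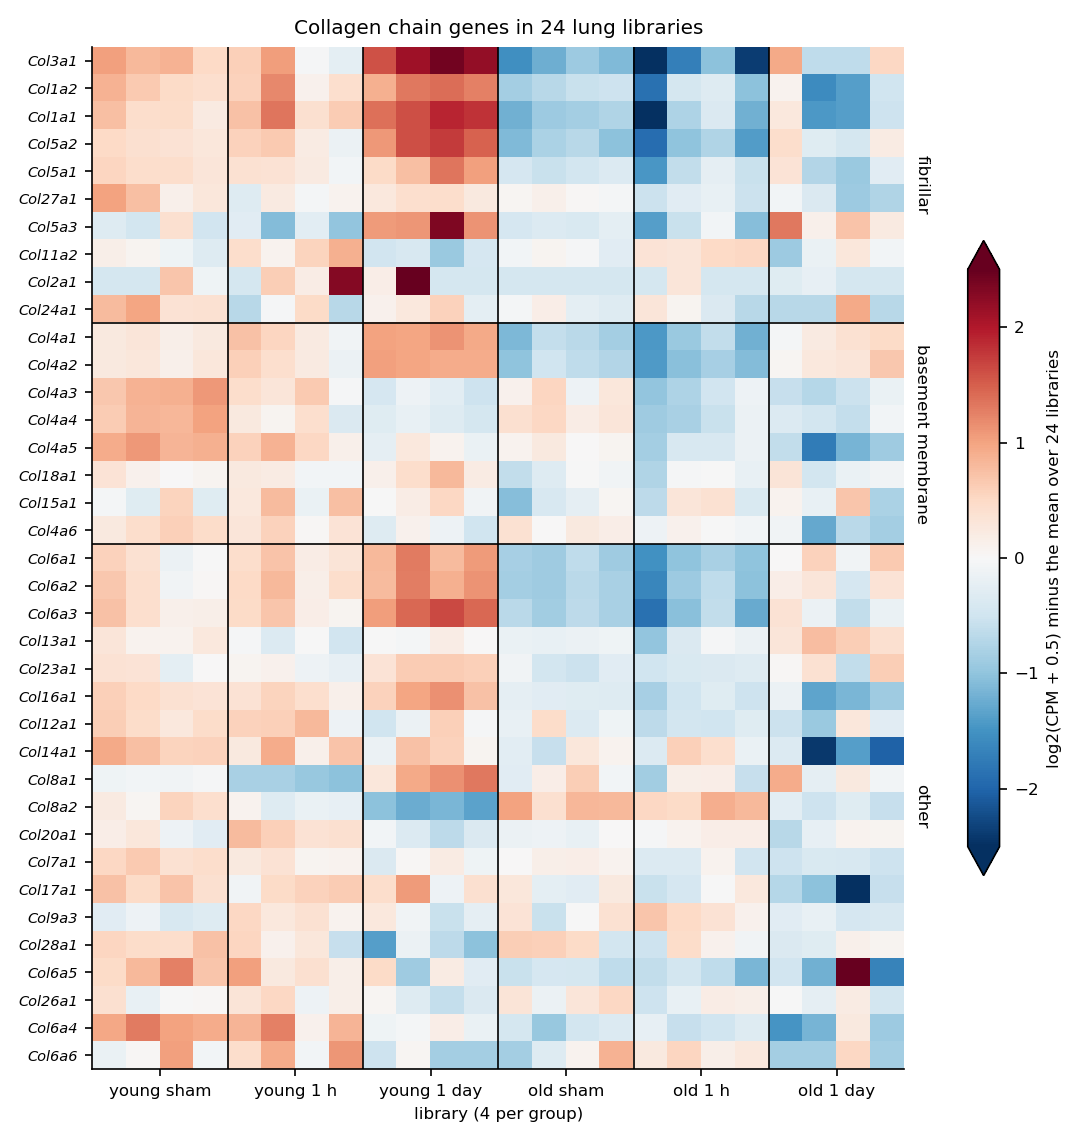
Heat map of the 37 members (lines, grouped by class and ordered by mean level) in the 24 libraries (columns, 4 per group), coloured by log2(CPM + 0.5) minus the mean of that gene over all libraries. Col3a1, Col5a2 and Col6a1 to Col6a3 are reddest in young 1 day and bluest in old sham and old 1 h libraries, Col4a3 to Col4a5 are reddest in young sham, and Col6a5 has a single red cell in the old 1 day group.

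Lungs of the sham groups were compared first, which asks how collagen transcripts differed between the ages without reperfusion. Age cannot be told apart here from other differences between the sham groups, such as the unstated time of sampling or the length trend. Old sham lungs had less transcript of the major interstitial and basement membrane chains. Of the 37 members, 13 were lower and 0 were higher at an adjusted p under 0.05 (edgeR quasi-likelihood test, Benjamini-Hochberg over 19690 genes). Over all genes tested, 2.31% were called in this comparison, 1.09% higher and 1.22% lower. At an unadjusted p under 0.05 there were 22 members, and the share of all genes at that level was not counted. The count of 13 fell to 7 or 8 without old sham library 1, 3 or 4 or young sham library 1 or 2. The 13 were 4 of 10 fibrillar genes (Col1a1, Col1a2, Col3a1, Col5a2), 4 of 8 basement membrane genes (Col4a1, Col4a2, Col4a3, Col4a5) and 5 of 19 others (Col6a1, Col6a2, Col6a3, Col6a4, Col16a1). The median log2 change was -0.60 over the members and 0.01 over all genes. By class it was -1.28 for fibrillar, -0.57 for basement membrane and -0.47 for other types. For 23 of the 37 members every old sham library lay below every young sham library, and no member had the reverse. The share of all genes without overlap was not counted, so these 23 cannot be set against it.

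The largest fall of an abundant member was that of Col3a1, which builds type III, a collagen of distensible tissue. Its CPM was 1100.1, 954, 988 and 768 in young sham libraries and 187, 233, 287 and 250.3 in old sham libraries. The groups did not overlap, and Col3a1 was 3.98-fold lower in old lungs (log2 change -1.99 ± 0.40 (SE), adjusted p = 0.00941). The type I chains were lower as well. Col1a1 measured 820.4, 657, 665 and 567 CPM in young sham and 210.3, 259, 269 and 287 CPM in old sham libraries. Col1a2 measured 891, 765, 681 and 653 CPM in young sham and 269.5, 299.9, 329.6 and 339 CPM in old sham libraries. Neither gene overlapped between the ages. The log2 changes were -1.40 ± 0.37 (SE), adjusted p = 0.0463 for Col1a1 and -1.27 ± 0.33 (SE), adjusted p = 0.0417 for Col1a2, and both calls were near the threshold. Leaving out 1 library ended the call of Col1a1 for 18 of the 24 libraries (adjusted p 0.052 to 0.146) and that of Col1a2 for 9 (0.0538 to 0.127).

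Type V starts and limits the growth of type I fibrils. Its chain Col5a2 fell from 144 to 167 CPM in young sham to 54.7 to 72.2 CPM in old sham libraries (log2 change -1.29 ± 0.22 (SE), adjusted p = 0.00287). Its partner Col5a1 was 123 to 144 CPM in young and 67.4 to 78.05 CPM in old sham libraries, which did not overlap, yet it missed the threshold (log2 change -0.88 ± 0.24 (SE), adjusted p = 0.0562). The 3 chains that make the common type VI microfilament were lower together. Col6a1 measured 659.6, 576, 400.4 and 438 CPM in young sham and 249.8, 238, 286 and 239 CPM in old sham libraries. The log2 changes were -1.03 ± 0.19 (SE), adjusted p = 0.00437 for Col6a1, -1.10 ± 0.20 for Col6a2 (adjusted p = 0.00437) and -1.13 ± 0.22 for Col6a3 (adjusted p = 0.00778). No library of 1 age reached the range of the other for any of them.

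In the basement membrane group, Col4a1 and Col4a2, the chains of the type IV network found in all tissues, had the smallest p-values of the members. Col4a1 was 1696, 1773, 1602 and 1709.6 CPM in young sham and 661, 959, 898 and 800.2 CPM in old sham libraries. Col4a2 was 1474, 1516, 1344 and 1508 CPM in young sham and 619.6, 881, 799.7 and 746 CPM in old sham libraries. Old lungs were lower without overlap for both, with log2 changes of -1.03 ± 0.17 (SE), adjusted p = 0.00179 and -0.94 ± 0.15 (SE), adjusted p = 0.0013. The chains Col4a3, Col4a4 and Col4a5 form a separate network of the kidney filter and the alveolus. They differed less, with log2 changes of -0.66 ± 0.18 (adjusted p = 0.0465), -0.48 ± 0.16 (adjusted p = 0.118, not called) and -0.84 ± 0.19 (adjusted p = 0.0183). Leaving out 1 library ended the call of Col4a3 for 15 of 24 libraries, that of Col6a4 for 8, that of Col16a1 for 6 and that of Col4a5 for 4. The calls of Col3a1, Col5a2, Col6a1, Col6a2, Col6a3, Col4a1 and Col4a2 held in all 24 removals. Col15a1 and Col18a1, which sit beneath basement membranes and of which Col18a1 is the source of endostatin, were not called. Col15a1 was 27.04, 22.3, 41.1 and 22.6 CPM in young sham and 12.98, 20.96, 23.8 and 28.7 CPM in old sham libraries, and these overlapped. Col18a1 was 106, 89.1, 83.4 and 86.3 CPM in young sham and 53.6, 66.01, 82.4 and 77.7 CPM in old sham libraries, which did not overlap.

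**Figure D2:**
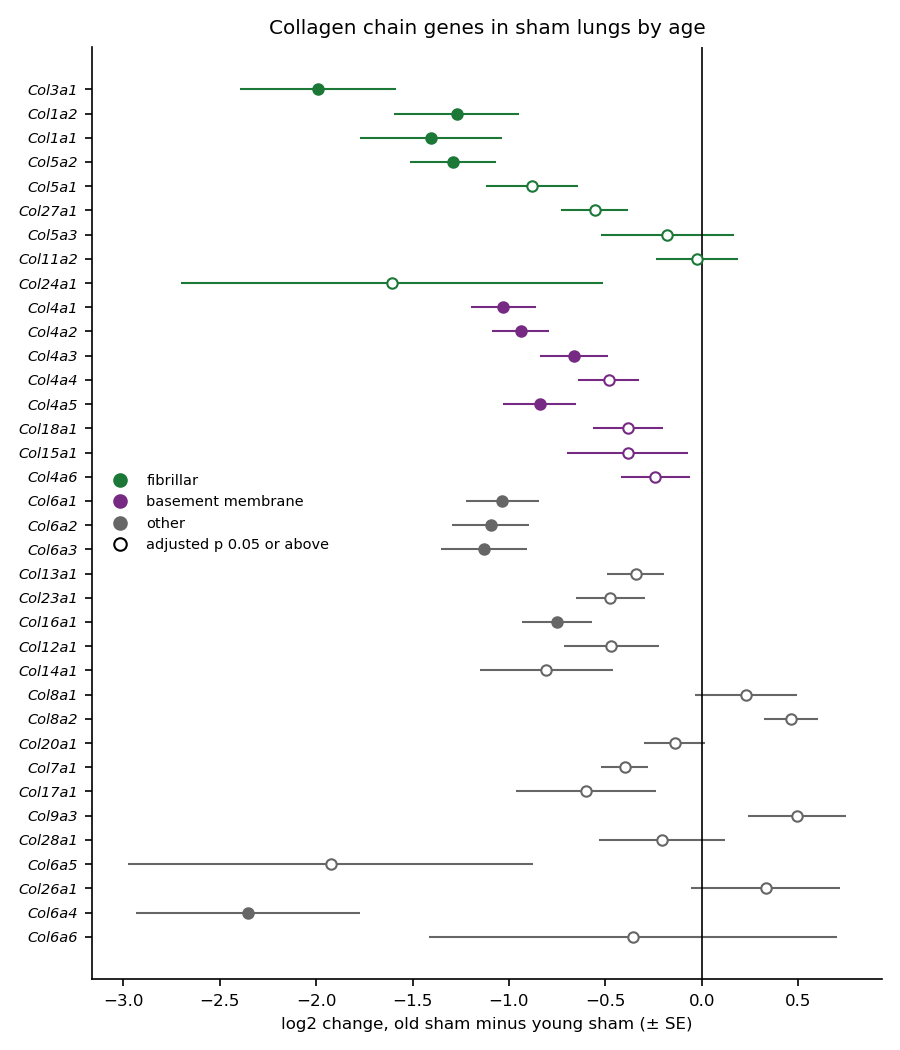
Log2 change of 36 members in old sham minus young sham lungs (horizontal axis, points with SE, 4 libraries per group), ordered by class and level, with filled points for an adjusted p under 0.05. Filled points lie between -2.35 (Col6a4) and -0.66 (Col4a3), all left of 0, and Col2a1 is left out because it was at 0 in every old sham library.

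In whole lung RNA, fewer cells of a type and less transcript per cell cannot be told apart. Beside the marker counts below, 1.22% of all genes were lower and 1.09% higher in old sham lungs. Of 12 fibroblast marker genes, 2 were lower in old sham lungs and none higher, and their summed level was 2890.1 to 3544 CPM in old against 3502 to 4124 CPM in young sham libraries, which overlapped. Of 12 smooth muscle and pericyte markers, 3 were lower and none higher, with sums of 765 to 1268 and 1223 to 1484 CPM. Of 8 endothelial and 8 alveolar type 1 markers, none was called in either direction. The part of these markers in the collagen differences was not tested.

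After 1 day, Col3a1, Col5a2, Col5a3, Col4a1, Col4a2 and Col6a1 to Col6a3 were higher and Col4a3 to Col4a6 lower than in sham lungs of the same age. In young lungs 10 members rose and 10 fell, where 27.9% of all genes tested rose and 26% fell. In old lungs 11 rose and 10 fell, where 20% of all genes rose and 16.3% fell. The share of members called was thus near that of all genes in young lungs (53.9% in either direction) and above it in old lungs (36.3%). By class, 4 fibrillar genes rose and 1 fell in young lungs, and 3 rose and 1 fell in old lungs. Of basement membrane genes 2 rose and 4 fell at either age. Of other types 4 rose and 5 fell in young lungs, and 6 rose and 5 fell in old lungs. The median log2 change of the members was -0.09 in young and -0.03 in old lungs, beside -0.03 and 0.02 over all genes. Risers at both ages were Col3a1, Col5a2, Col5a3, Col4a1, Col4a2, Col6a1, Col6a2 and Col6a3, which were 8 of the 10 in young and 8 of the 11 in old lungs. The genes that fell at both ages were Col4a3, Col4a4, Col4a5, Col4a6, Col7a1 and Col8a2, 6 of the 10 at each age.

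Among fibrillar genes, Col3a1 rose at both ages. After 1 day its CPM was 1644, 2346, 2882 and 2474 in young libraries and 1047, 348, 348 and 773 in old libraries, against the sham values above. All young 1 day libraries lay above all young sham libraries, and all old 1 day libraries above all old sham libraries. In the old group libraries 2 and 3 were low and library 1 was high. The rise was 2.45-fold in young lungs (log2 change 1.29 ± 0.40 (SE), adjusted p = 0.00884) and 2.63-fold in old lungs (log2 change 1.39 ± 0.40 (SE), adjusted p = 0.00919). Without old 1 day library 1 the old change was 1.01 with an adjusted p of 0.0506. The old 1 day mean of 629 ± 343 CPM stayed below the young sham mean of 952 ± 138 CPM (SD, n = 4 each). The bases before the start of Col3a1 are shown because this gene had the largest age difference of the abundant members in sham lungs and rose at both ages. They are the 150 bases upstream at chr1:45311388-45311537 on the plus strand of GRCm38.p6 (RefSeq), read 5′ to 3′, with the letters TATAAA in capitals.
Col3a1: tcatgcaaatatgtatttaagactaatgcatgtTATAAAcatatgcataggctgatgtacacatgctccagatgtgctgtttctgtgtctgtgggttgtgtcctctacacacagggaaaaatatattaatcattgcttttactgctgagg
This stretch is 37.33% GC. The letters TATAAA stood on either strand in the 250 upstream bases of 12.9% of the 31 member windows (29 members matched) and in 12.37% of 32851 windows of all genes.

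Of the type I chains, Col1a1 was called in young lungs alone, and the difference between the ages was tested in its own right. Col1a1 reached 1267, 1487, 1810.5 and 1709.9 CPM in young 1 day libraries, all above the young sham range, and rose 2.32-fold (log2 change 1.21 ± 0.37 (SE), adjusted p = 0.00813). In old 1 day libraries Col1a1 was 585, 179.6, 187 and 338 CPM, which overlapped the old sham values, with libraries 1 and 4 above them and libraries 2 and 3 below. Its log2 change in old lungs was 0.33 ± 0.36 (SE), adjusted p = 0.503, and the sign turned to -0.15 without old 1 day library 1 (adjusted p = 0.775). The old change minus the young change was -0.88 ± 0.51 with an adjusted p of 0.208, so a difference between the ages was not shown. Without old 1 day library 1 that difference was -1.35 with an adjusted p of 0.0313. Col1a2 measured 900.2, 1218, 1277 and 1158 CPM in young 1 day libraries and 518, 163, 187 and 345 CPM in old 1 day libraries. The young values lay above all young sham values, but the log2 change of 0.61 ± 0.32 was not called (adjusted p = 0.118). It was 0.90 and called when the GC trend was removed.

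Both type V chains that rose did so at both ages. Col5a2 reached 250.2, 359.6, 395 and 328 CPM in young and 161, 95.9, 86.97 and 136 CPM in old 1 day libraries. Col5a3 reached 22.6, 23.2, 55.5 and 23.5 CPM in young and 27.001, 11.6, 17.6 and 12.4 CPM in old 1 day libraries. In every case the 1 day libraries lay above their sham group, and young 1 day library 3 stood far above the other 3 for Col5a3. The log2 changes of Col5a2 were 1.11 ± 0.22 (SE), adjusted p = 0.000246 in young lungs and 0.92 ± 0.22 (adjusted p = 0.00259) in old lungs. Those of Col5a3 were 1.75 ± 0.35 (adjusted p = 0.000235) and 1.06 ± 0.34 (adjusted p = 0.02), and the old value lost its call without old 1 day library 1 or old sham library 1. Col5a1 measured 138, 168, 250.3 and 202 CPM in young 1 day and 126, 59.9, 52.02 and 81.7 CPM in old 1 day libraries and was not called at either age. The fibrillar genes that fell were Col11a2, a chain mainly of cartilage, in young lungs (-0.54, adjusted p = 0.0352) and Col27a1 in old lungs (-0.53, adjusted p = 0.0218).

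**Figure D3:**
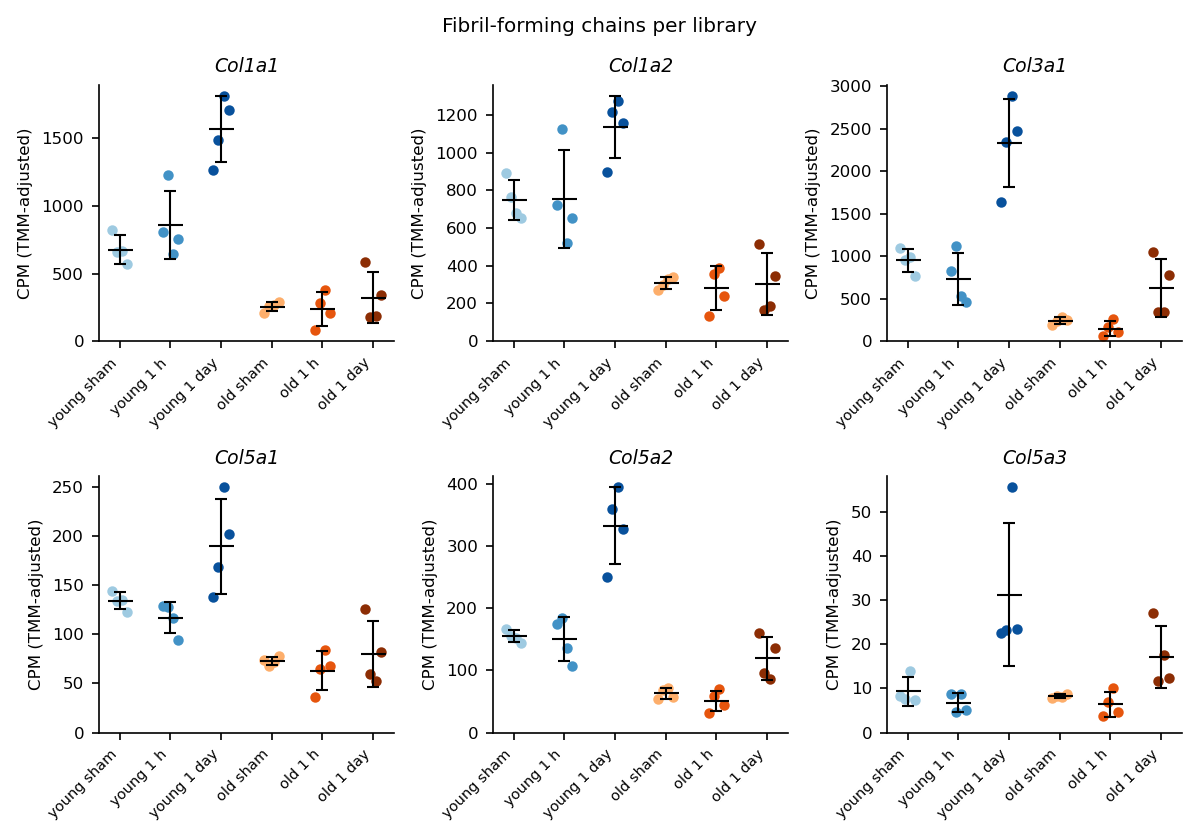
CPM of 6 fibrillar genes (vertical axes from 0) in each library of the 6 groups, with coloured points for libraries and black bars for the mean ± SD of 4 libraries. Col3a1, Col5a2 and Col5a3 are higher at 1 day than in sham at either age, while Col1a1 reaches 1267 to 1810.5 CPM in young 1 day libraries and spreads from 179.6 to 585 CPM in old ones.

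Of the type VI genes, Col6a1, Col6a2 and Col6a3 rose at both ages and Col6a4 fell in young lungs. Col6a1 reached 779, 1097, 767 and 929.5 CPM in young and 449, 662, 414 and 695 CPM in old 1 day libraries, all above their sham group. Its log2 change was 0.78 ± 0.19 (SE), adjusted p = 0.00126 in young lungs and 1.13 ± 0.19 (adjusted p = 8.91e-05) in old lungs. Col6a2 rose by 0.74 and 0.93, and Col6a3 by 1.03 and 0.66 on the log2 scale in young and old lungs. With the GC trend removed, the young changes of Col6a1 and Col6a2 were both 0.41 and were not called, and that of Col6a3 was 0.80 and called. The old call of Col6a3 was lost without old 1 day library 1 or old sham library 1, 2 or 4. The type VI genes Col6a4 to Col6a6, chains that can take the place of Col6a3, were low at 0.744, 0.579 and 0.188 TPM in young sham lungs. Col6a4 was 2.15 to 2.95 CPM in young sham and 0.747 to 1.07 CPM in young 1 day libraries, which did not overlap (log2 change -1.47 ± 0.56 (SE), adjusted p = 0.0303), and the call was lost without any 1 of 4 libraries. Col6a5 was called higher in old 1 day lungs only through 1 library. Its CPM there was 0.642, 0.1904, 20.1 and 0, and without library 3 the log2 change of 3.08 became -1.14 (adjusted p = 0.191).

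The 6 type IV genes split by network. Each lies head to head with a partner, Col4a1 with Col4a2 on chromosome 8, Col4a4 with Col4a3 on chromosome 1 and Col4a6 with Col4a5 on the X chromosome. In the curated transcripts of the deposited table, Col4a1 and Col4a2 share 22 bases at their starts, 71 bases lie between Col4a4 and Col4a3, and 1342 bases lie between Col4a6 and Col4a5. The gap between Col4a4 and Col4a3 is shown because both genes fell at 1 h and at 1 day at both ages. It lies at chr1:82586850-82586920 (GRCm38.p6, RefSeq) and is read 5′ to 3′ on the minus strand, toward Col4a4.
Col4a4 to Col4a3: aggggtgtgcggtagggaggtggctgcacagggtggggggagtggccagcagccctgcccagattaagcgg
It is 69.01% GC and held none of the searched letters (GGGCGG, those of a TATA box as above, or CCAAT) on either strand, so no letters are in capitals.

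Col4a1 and Col4a2 rose after 1 day. Col4a1 was 2904, 2872, 3124 and 2766 CPM in young and 1386, 1691, 1876 and 1997 CPM in old 1 day libraries. Col4a2 was 2534, 2445, 2360 and 2346 CPM in young and 1288, 1492, 1529 and 1982 CPM in old 1 day libraries. Every 1 day library lay above the sham libraries of its age, and the old 1 day libraries spanned the range of the young sham libraries. The log2 changes were 0.78 ± 0.17 (SE), adjusted p = 0.000467 and 1.07 ± 0.17 (SE), adjusted p = 5.1e-05 for Col4a1 in young and old lungs. For Col4a2 they were 0.73 ± 0.15 (adjusted p = 0.00026) and 1.05 ± 0.15 (adjusted p = 1.56e-05). With the GC trend removed, the young values fell to 0.44 and 0.35 and were not called, while the old values were 1.03 and 1.01 and were called.

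The chains Col4a3 and Col4a4 fell already at 1 h and were low at 1 day. In young sham libraries Col4a3 was 318, 362, 367 and 420.3 CPM, in young 1 h libraries 271, 244, 313 and 194 CPM and in young 1 day libraries 149, 181, 164 and 138 CPM. In old sham libraries it was 215, 287, 183 and 241 CPM, in old 1 h libraries 99.7, 116, 142 and 182 CPM and in old 1 day libraries 134, 121, 136 and 178 CPM. In young lungs the 3 groups did not overlap, and in old lungs both reperfused groups lay below all sham libraries. The log2 changes of Col4a3 against sham were -0.52 ± 0.17 (SE), adjusted p = 0.0206 at 1 h and -1.21 ± 0.18 (SE), adjusted p = 5.99e-06 at 1 day in young lungs. In old lungs they were -0.78 ± 0.18 (SE), adjusted p = 0.00244 at 1 h and -0.70 ± 0.18 (SE), adjusted p = 0.00346 at 1 day. The young 1 h value was -0.34 and not called with the GC trend removed, and it lost its call without young 1 h library 4 or young sham library 4.

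Col4a4 followed the same course. Its CPM in young lungs was 228, 267, 264 and 297 in sham, 174, 155, 196 and 114 at 1 h and 119, 129.8, 118 and 109 at 1 day. In old lungs it was 195, 210.2, 168 and 182 in sham, 79.4, 83.1, 100.1 and 132 at 1 h and 116, 108, 97.03 and 140.3 at 1 day. All reperfused libraries lay below the sham libraries of their age. The log2 changes were -0.73 and -1.15 in young lungs at 1 h and 1 day (adjusted p = 0.000766 and 2.69e-06). In old lungs they were -0.94 and -0.71 (adjusted p = 0.000181 and 0.00127). All 4 kept their calls with the GC trend removed. Col4a5 was 87.9, 123, 109.9 and 91.2 CPM in young and 67.4, 30.2, 45.7 and 55.7 CPM in old 1 day libraries, with log2 changes of -0.94 ± 0.19 (SE), adjusted p = 0.00023 and -1.15 ± 0.19 (SE), adjusted p = 8.12e-05. Col4a6, which pairs with Col4a5 in other basement membranes, fell by 0.64 in young and by 0.89 in old lungs on the log2 scale (adjusted p = 0.00425 and 0.000607).

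Of 8 alveolar type 1 cell markers, 1 was higher and none lower in young 1 day lungs, and their summed level was 4060.5 to 4717 CPM against 4162 to 5024 CPM in young sham libraries. In old lungs all 8 were lower at 1 h and 6 were lower at 1 day, and the sums were 3574 to 4670.2 CPM in sham, 2059 to 3092 CPM at 1 h and 2674 to 3536 CPM at 1 day. Among all genes tested, 27.9% were higher and 26% lower in young 1 day lungs. In old lungs 12.6% of all genes were lower at 1 h and 16.3% at 1 day. The part of alveolar type 1 cells in the type IV changes was not tested at either age.

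**Figure D4:**
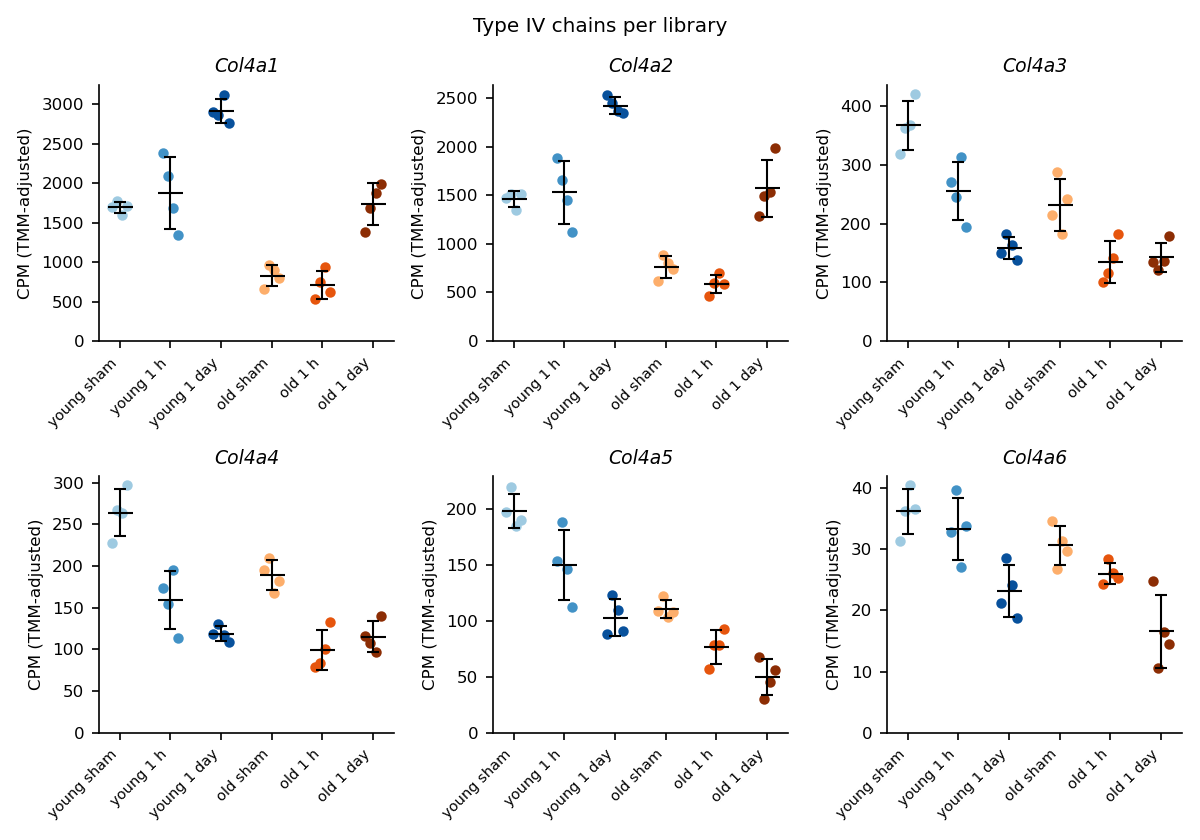
CPM of the 6 type IV genes (vertical axes from 0) in each library of the 6 groups, with coloured points for libraries and black bars for the mean ± SD of 4 libraries. Col4a1 and Col4a2 are highest at young 1 day, whereas Col4a3 and Col4a4 are highest in young sham and lower at 1 h and 1 day at both ages.

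The makeup of type IV transcript differed between sham and 1 day lungs. In young lungs the rises of Col4a1 and Col4a2 were not called with the GC trend removed. The part of that trend in the shares and ratios below was not tested. Col4a3, Col4a4 and Col4a5 together made 15.9, 17.2, 18.1 and 18.3% of type IV TPM in young sham libraries and 5.05, 6.27, 5.56 and 5.13% in young 1 day libraries. In old lungs they made 23.9, 20.98, 17.5 and 21.2% in sham and 8.68, 5.96, 6.11 and 6.88% at 1 day. The sham and 1 day groups did not overlap at either age. The ratio of Col4a1 to Col4a3 TPM was 6.07 ± 0.728 in young sham, 9.66 ± 2.07 at 1 h and 24.2 ± 2.46 at 1 day (SD, n = 4). In old lungs it was 4.77 ± 1.102, 7.16 ± 1.94 and 16.1 ± 2.37. Within the partner pairs, group means of Col4a1 to Col4a2 lay between 1.06 and 1.19 and those of Col4a3 to Col4a4 between 1.25 and 1.64. The third pair ranged more widely, with Col4a5 to Col4a6 at 5.61 ± 0.802 in young sham, 4.52 ± 0.308 in young 1 day, 3.69 ± 0.613 in old sham and 3.004 ± 0.585 in old 1 day libraries (SD, n = 4).

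Among the other types, the short-chain type VIII genes, known from Descemet's membrane of the eye and from vessel walls, moved apart in young lungs. Col8a1 was 14.6, 14.9, 14.8 and 15.3 CPM in young sham, 8.78, 8.697, 7.91 and 7.47 CPM at 1 h and 19.1, 30.6, 35.3 and 40.04 CPM at 1 day. Col8a2 was 14.8, 13.1, 18.7 and 17.1 CPM in young sham, 13.3, 9.98, 11.1 and 10.8 CPM at 1 h and 5.94, 5.04, 5.39 and 4.63 CPM at 1 day. At 1 day the libraries of Col8a1 lay above and those of Col8a2 below all sham libraries. The log2 changes at 1 day were 1.07 ± 0.26 (SE), adjusted p = 0.00176 for Col8a1 and -1.60 ± 0.15 (SE), adjusted p = 1.07e-08 for Col8a2. In old lungs Col8a2 fell as well, from 16.8 to 25.6 CPM in sham to 8.25 to 10.3 CPM at 1 day (log2 change -1.23 ± 0.14 (SE), adjusted p = 1.32e-06), and Col8a1 was 12.8 to 24.5 and 13.4 to 30.4 CPM, which overlapped. The 100 bases upstream of both are shown because the genes of this type moved in opposite directions. They lie at chr16:57754738-57754837 on the minus strand for Col8a1 and chr4:126286694-126286793 on the plus strand for Col8a2 (GRCm38.p6, RefSeq). They are read 5′ to 3′, and capitals mark GGGCGG or, on the other strand, CCGCCC, which overlap each other in Col8a2.
Col8a1: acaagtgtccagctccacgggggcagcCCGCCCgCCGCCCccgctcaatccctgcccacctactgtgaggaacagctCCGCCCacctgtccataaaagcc
Col8a2: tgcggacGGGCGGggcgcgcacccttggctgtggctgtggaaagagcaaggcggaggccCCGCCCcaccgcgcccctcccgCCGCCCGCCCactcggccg
Both stretches hold the letters GGGCGG on either strand, and they are 67% and 80% GC. These letters stood in 19 of the 31 member windows of 250 bases (61.29%) and in 32.74% of the windows of all genes. CCAAT stood in 32.26% of member windows and 33.85% of all windows.

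Col13a1, a transmembrane collagen, changed to a different extent in young and old lungs. Its CPM was 65.7, 65.2, 66.9 and 69.2 in old sham and 92.2, 127, 113 and 98.04 in old 1 day libraries, which did not overlap (log2 change 0.69 ± 0.15 (SE), adjusted p = 0.00101). In young lungs it was 78.4 to 91.7 CPM in sham and 71.7 to 84.9 CPM at 1 day and was not called. The old change minus the young change was 0.84 ± 0.21 (adjusted p = 0.00444). Col16a1, a collagen that sits on fibrils and microfilaments, went the other way. It was 43.3, 41.05, 40.7 and 40.2 CPM in old sham and 45.4, 19.996, 22.7 and 27.1 CPM in old 1 day libraries, where library 1 lay above the sham values and the other 3 below. In young lungs it was 64.2 to 76.3 CPM in sham and 75.8 to 112 CPM at 1 day. Its difference of changes was -0.94 ± 0.25 (adjusted p = 0.00796), and it was -0.61 and not called with the GC trend removed.

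The fibril-coating gene Col14a1 fell in old lungs, from 27.95, 22.3, 41.01 and 35.6 CPM in sham to 26.4, 5.87, 12.6 and 7.82 CPM at 1 day (log2 change -1.26 ± 0.35 (SE), adjusted p = 0.00818). Library 1 of the old 1 day group lay within the sham range and the other 3 below it, and without it the log2 change was -1.87. Col17a1, the hemidesmosome collagen of epithelia, fell in old lungs from 4.82 to 7.37 CPM to 0.477 to 3.82 CPM (log2 change -1.21 ± 0.38 (SE), adjusted p = 0.0152). Col7a1, the chain of the anchoring fibrils of skin, was lower at 1 day by 0.56 in young and by 0.58 in old lungs, with adjusted p-values of 0.000549 and 0.000888. Col28a1 fell in young lungs from 3.98, 3.73, 3.69 and 4.68 CPM to 0.697, 2.29, 1.46 and 1.02 CPM (log2 change -1.56 ± 0.34 (SE), adjusted p = 0.000551). Col12a1, Col15a1, Col18a1, Col26a1, Col6a6, Col2a1, Col24a1 and Col9a3 were not called at 1 day against sham at either age.

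At 1 h few members differed from sham. In young lungs 3 rose and 7 fell, where 21.2% of all genes rose and 20.1% fell (41.3% in either direction). The 10 calls became 6 without young 1 h library 4 or young sham library 4. In old lungs 0 rose and 4 fell, where 12.6% rose and 12.6% fell (25.2% in all). The median log2 change of the members was -0.12 in young and -0.22 in old lungs, beside 0.02 and 0.00 over all genes. The genes that fell at both ages were Col4a3, Col4a4 and Col7a1, 3 of the 7 in young and 3 of the 4 in old lungs. The risers in young lungs were Col9a3, Col11a2 and Col20a1, and none of the 3 was called with the GC trend removed. Chains of Col9a3 and Col11a2 are known from cartilage. Only 5 cartilage markers could be tested, and the defining genes Acan, Cnmd and Matn1 were not among them. Of the 5, 2 (Sox9 and Matn4) rose and none fell in young 1 h lungs. The summed cartilage markers were 141 to 150 CPM there against 86.3 to 100.5 CPM in young sham, which did not overlap. Their part in these rises was not tested. Col9a3 was 1.21, 1.3998, 1.07 and 1.17 CPM in young sham and 2.498, 2.01, 2.23 and 1.71 CPM at 1 h, which did not overlap (log2 change 0.80 ± 0.26 (SE), adjusted p = 0.0154). Up to 6.07% of the exon bases of Col9a3 overlap the antisense gene Tcfl5 in the GENCODE annotation. Col8a1 fell by 0.86 in young lungs at 1 h (adjusted p = 0.0136), and its value was -0.59 and not called with the GC trend removed. Col3a1 was 821, 1122, 529 and 459.7 CPM in young and 58.1, 166, 264 and 105 CPM in old 1 h libraries, with log2 changes of -0.38 (adjusted p = 0.472) and -0.69 (adjusted p = 0.209). Library 1 of the old 1 h group was the lowest of its group for Col3a1, Col1a1, Col5a2, Col6a1 and Col4a1, and 2 members were called in place of 4 without it, without old 1 h library 2 or without old sham library 2 or 3. The same library had the highest sum of 8 leukocyte markers in its group, at 3356.5 CPM against 1393 to 1862.5 CPM in the other 3. Of these markers 6 rose and none fell in old 1 h lungs, with a mean sum of 2022 ± 913 CPM against 797 ± 108 CPM in old sham (SD, n = 4). In young 1 h lungs 3 rose and none fell, with sums of 934 to 1236 CPM. Their part in the 1 h values was not tested.

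Col4a5 was also lower at 1 h in old lungs. Its CPM was 109, 123, 103 and 108 in old sham and 56.8, 78.3, 78.4 and 93.1 in old 1 h libraries, which did not overlap (log2 change -0.53 ± 0.19 (SE), adjusted p = 0.0423). The call was lost without any 1 of 8 libraries. In young lungs Col4a5 was 185 to 220.2 CPM in sham and 112 to 188 CPM at 1 h.

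Between 1 h and 1 day most of the matrix chains that rose against sham rose as well. In this comparison 12 members rose and 9 fell in young lungs, where 24.5% of all genes rose and 22.1% fell (46.6% in all). In old lungs 11 rose and 7 fell, where 24.1% rose and 20.9% fell (45% in all). Col3a1 rose by 1.67 ± 0.40 in young (adjusted p = 0.00184) and by 2.08 ± 0.41 in old lungs (adjusted p = 0.000333) on the log2 scale. Col5a3 rose by 2.20 and 1.43, Col4a2 by 0.66 and 1.42, and Col6a1 by 0.58 and 1.39. Col8a1 rose by 1.93 in young lungs (adjusted p = 9.74e-06).

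After reperfusion many members were again lower in old than in young lungs. At 1 h 18 were lower and 2 higher, where 21.5% of all genes were lower and 20.5% higher (42% in all). At 1 day 20 were lower and 2 higher, where 25.1% of all genes were lower and 25.1% higher (50.2% in all). The median log2 change of the members was -0.61 at 1 h and -0.69 at 1 day, beside 0.02 and 0.02 over all genes, and that of the fibrillar genes was -1.16 and -1.36. At 1 day Col1a1 was 4.86-fold lower in old lungs (log2 change -2.28 ± 0.38 (SE), adjusted p = 4.88e-05), Col1a2 3.75-fold (adjusted p = 7.84e-05) and Col3a1 3.71-fold (adjusted p = 0.000586). At 1 h Col3a1 was 4.94-fold lower (log2 change -2.31 ± 0.41 (SE), adjusted p = 0.000149) and Col1a1 3.61-fold lower (adjusted p = 0.000486). Col8a2 was higher in old lungs at both times, at 1 h by 0.86 ± 0.14 and at 1 day by 0.83 ± 0.14 (adjusted p = 6.36e-05 and 7.54e-05). Beside these differences, 7 of 12 smooth muscle and pericyte markers were lower and none higher in old 1 h lungs, and 10 were lower and none higher in old 1 day lungs. Of 12 fibroblast markers, 5 were lower and none higher at 1 h, and 6 were lower and 2 higher at 1 day. Their part in the collagen differences was not tested.

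The size of the change after reperfusion was tested for a difference between the ages. At 1 h no member passed (0 of 37, edgeR), where 17.5% of all genes did, 8.07% with a higher and 9.46% with a lower change in old lungs. At an unadjusted p under 0.05 there was 1 member, and DESeq2 called 0. At 1 day 2 members had a higher and 1 a lower change in old lungs, where 15.2% of all genes were higher and 15.2% lower (30.3% in all). Without old 1 day library 1 there were 6. The 3 were Col13a1 and Col6a5 (higher) and Col16a1 (lower), and that of Col6a5 was 4.22 with and 0.00 without old 1 day library 3. For the other 34 members no difference in the size of the change was shown.

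The counts were taken again with the GC trend removed. Between the sham groups 14 members were lower and 0 higher, where 2.9% of all genes were called. Against sham, 7 fell and 0 rose in young 1 h lungs (33.7% of all genes called) and 6 fell and 0 rose in old 1 h lungs (30.5%). At 1 day 7 rose and 13 fell in young lungs (48.4%), and 11 rose and 10 fell in old lungs (40.3%). Between 1 h and 1 day 13 rose and 9 fell in young lungs (49.2%), and 12 rose and 7 fell in old lungs (52.2%). Old lungs were lower for 16 members and higher for 1 at 1 h (35.4%), and lower for 14 and higher for 4 at 1 day (42.4%). The change differed between the ages for 0 members at 1 h (6.48%) and for 6 at 1 day (19.6%). Of the age differences at 1 day, those of Col6a1, Col4a2, Col18a1, Col4a6, Col7a1 and Col5a3 were no longer called.

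The summed TPM of all members in young lungs was 3039 to 3665 after sham, 2248 to 3357 at 1 h and 4050 to 5419 at 1 day. In old lungs it was 1349 to 1682 in sham, 731 to 1481 at 1 h and 2166 to 2985 at 1 day. Each old group lay below the young group of its time, and each 1 day group lay above its sham group. Fibrillar genes made 40.1 ± 4.04% of the sum in young 1 day and 24.4 ± 1.42% in old sham libraries (SD, n = 4). In old 1 day libraries the fibrillar share was 35.3, 14.3, 15.6 and 21.9%, so that library 1 stood with the young groups. Basement membrane genes made 36.7 ± 3.75% in young 1 day, 47.1 ± 3.06% in old sham and 49.2 ± 8.03% in old 1 day libraries.

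**Figure D5:**
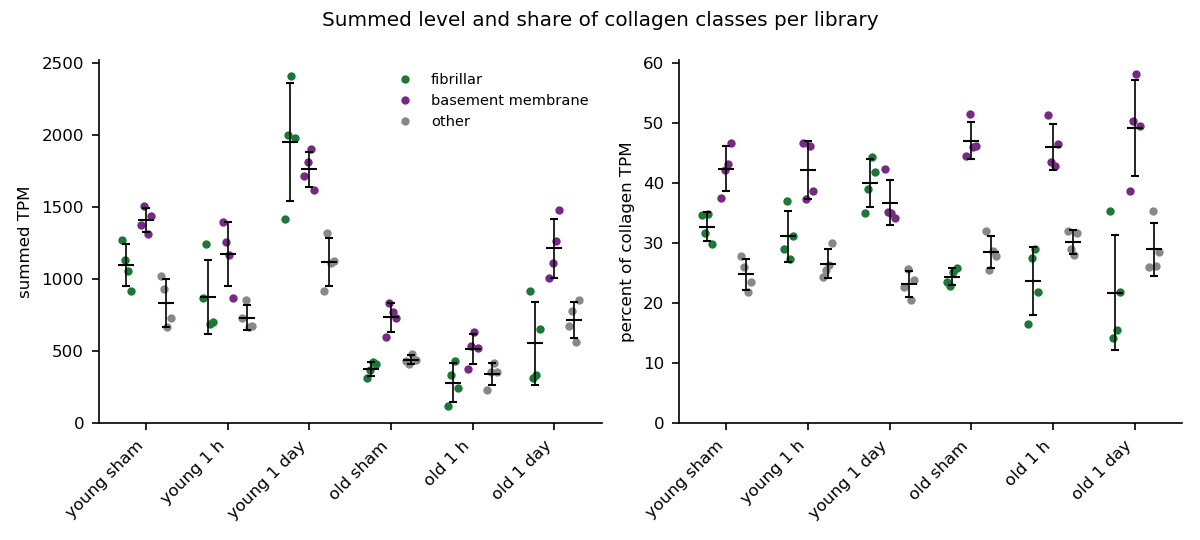
Summed TPM (left) and share of the collagen TPM (right) of fibrillar, basement membrane and other members in each library of the 6 groups, with points for libraries and black bars for the mean ± SD of 4 libraries. Fibrillar genes exceed basement membrane genes in mean level only at young 1 day, at 1950.2 ± 406 against 1759.7 ± 121 TPM.

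Chains of the same fibril did not keep 1 ratio. Col3a1 over Col1a1 in TPM was 1.43, 1.55, 1.58 and 1.44 in young sham, 1.08, 0.975, 0.874 and 0.646 at 1 h and 1.38, 1.68, 1.696 and 1.54 at 1 day. In old lungs it was 0.9498, 0.959, 1.14 and 0.931 in sham, 0.766, 0.619, 0.749 and 0.5295 at 1 h and 1.91, 2.06, 1.98 and 2.44 at 1 day. At both ages the ratio was lower at 1 h than in any sham library, and in old lungs it was higher at 1 day than in any sham library. The chains of type I are Col1a1 and Col1a2, and Col1a1 over Col1a2 in TPM was 0.798 ± 0.04802 in young sham, 1.01 ± 0.0557 at 1 h and 1.22 ± 0.0977 at 1 day (SD, n = 4). In old lungs it was 0.727 ± 0.0316, 0.714 ± 0.136 and 0.928 ± 0.06504. Col5a1 over Col5a2 fell at 1 day from 0.689 to 0.708 to 0.3796 to 0.513 in young lungs and from 0.794 to 1.09 to 0.479 to 0.636 in old lungs. The part of the GC trend in these ratios was not tested.

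The enzymes that modify, fold and cross-link collagen chains were examined beside their substrates. Of 33 tested genes of this list, 20 rose and 7 fell in young and 18 rose and 4 fell in old 1 day lungs. Among all genes tested, 27.9% rose and 26% fell in young lungs, and 20% rose and 16.3% fell in old lungs. In young lungs the lysyl hydroxylases Plod1 and Plod3 rose by 1.19 and 1.07 (adjusted p = 2.48e-09 and 9.58e-10) and the prolyl isomerase Ppib by 1.05 (adjusted p = 1.47e-09) on the log2 scale. In old lungs Plod1 rose by 0.82 (adjusted p = 1.87e-06), while the procollagen proteinase enhancer Pcolce2 fell by 1.65 and the collagen galactosyltransferase Colgalt2 by 1.49 (adjusted p = 1.33e-08 and 1.49e-07). The rise was smaller in old lungs for Crtap, Colgalt1 and Ppib, with differences of -1.03, -0.73 and -0.70 (adjusted p = 6.6e-05, 7.65e-05 and 0.000179). The collagen chaperone Serpinh1 was 3.78-fold lower in old than in young 1 day lungs (log2 change -1.92 ± 0.18 (SE), adjusted p = 1.09e-07). At 1 day the old change minus the young change was called positive for 5 of the 33 and negative for 12. Over all genes tested, 15.2% were called positive and 15.2% negative. In sham lungs 9 of the 33 were lower and none higher in old animals, among them the procollagen proteinases Adamts2 (-1.18, adjusted p = 0.00746) and Adamts14 (-1.12, adjusted p = 0.000266). The shares of all genes were 1.22% lower and 1.09% higher.

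Of 10 collagen receptor genes, none rose and 5 fell in young 1 day lungs, and none rose and 4 fell in old ones. For these lists too, 27.9% of all genes rose and 26% fell in young lungs. In old lungs 20% of all genes rose and 16.3% fell. The integrin chain Itga2 fell by 0.92 and by 0.57, and Itga1 by 0.74 and by 0.93 (adjusted p = 4.1e-06, 0.00166, 8.11e-05 and 2.14e-05). Of 6 proteases that cut collagen, 1 rose in young and 4 rose in old 1 day lungs, and none fell at either age. Their summed level was 687 to 723 CPM in young 1 day against 347 to 498 CPM in young sham libraries. In old libraries it was 491, 1306, 667 and 713 CPM at 1 day, with library 2 far above the others, against 289.7 to 362 CPM in sham. The membrane protease Mmp14 rose at both ages, by 1.52 ± 0.17 and 1.63 ± 0.17 (adjusted p = 1.27e-07 and 3.06e-07). The neutrophil collagenase Mmp8 rose by 2.29 in old lungs (adjusted p = 0.00611), although its old ranges overlapped. In young lungs its log2 change was -1.16 and not called (adjusted p = 0.114). Its change differed between the ages by 3.44 (adjusted p = 0.00504). Of 16 genes of TGF-beta signalling, 6 rose and 7 fell in young and 5 rose and 5 fell in old 1 day lungs.

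Markers of cells that make or dilute collagen transcript also moved. Beside the counts below, 27.9% of all genes rose and 26% fell in young 1 day lungs. In old 1 day lungs 20% of all genes rose and 16.3% fell. Summed fibroblast markers were 2119.9 to 3241 CPM in young 1 day and 1363 to 2317 CPM in old 1 day libraries, below their sham groups. Of the 12 fibroblast genes, 1 rose and 3 fell in young and 1 rose and 6 fell in old 1 day lungs. The 1 of these 12 that rose in old lungs, where 6 fell, was Pdgfra, a fibroblast receptor (log2 change 1.27 ± 0.23 (SE), adjusted p = 0.000215). Pdgfra, and Krt19, Sox9 and Matn4 of other lists, were named after their values were seen. Of 8 leukocyte markers, 4 rose and 2 fell in young and 5 rose and 2 fell in old 1 day lungs. The summed leukocyte markers were 545 to 659 CPM in young sham, 928 to 1273 CPM in young 1 day, 715 to 949.9 CPM in old sham and 1287 to 3049 CPM in old 1 day libraries. The summed mesothelial markers were 244 to 347 CPM in young sham and 570.2 to 756 CPM in young 1 day libraries, which did not overlap. In old libraries they were 227 to 453 CPM in sham and 363 to 641 CPM at 1 day, which overlapped. Of these 6 genes 1 (Krt19, a keratin also of other epithelia) rose and 4 fell in young and 1 rose and 2 fell in old 1 day lungs. The higher sum in young 1 day lungs was thus not a rise shared by the list. Of 12 smooth muscle and pericyte markers, 3 rose and 1 fell in young and 1 rose and 5 fell in old 1 day lungs, with sums of 1336 to 1891 CPM in young and 570.3 to 905 CPM in old 1 day libraries. Of 12 cartilage markers, 5 could be tested, and the defining genes Acan, Cnmd and Matn1 were not among them. The part of these cells in the collagen changes was not tested.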

How the data were processed

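Lung RNA from 24 mouse libraries (6 groups of 4) was analysed from a deposited table of 129299 RefSeq transcripts. Per the submitters' processing notes the authors used HISAT2 and StringTie on mm10 (GRCm38); versions, strand and the handling of shared reads are not given in the sources used here. For each transcript the authors deposited estimated counts of reads, FPKM (per length and depth) and TPM (per length, with the same sum in every library). The estimated counts were close to FPKM times length times a constant, rounded up, so they carry the assembler's division of reads between transcripts.

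Transcripts were summed to 45777 genes. Genes passing edgeR's filterByExpr (minimum count 10) were tested, 19690 in all, with TMM factors, 6 group means and robust quasi-likelihood F tests (edgeR 4.0.16, R 4.3.3). There were 11 comparisons, each adjusted by Benjamini-Hochberg over all genes tested and called under 0.05. Totals were 27850677 to 44504824 reads per library, and no interval covers more than the spread between libraries. All 37 members passed the filter. Alternatives were DESeq2 1.42.0, other filters, only the groups compared, a replicate block, limma 3.58.1 on log2(TPM + 1) and log2(TPM + 0.1), leaving out each library, and per-library trends with GC content or length removed by offsets (natural spline, 5 degrees of freedom, 17994 genes with values from GENCODE transcripts). Removal of both trends together was added after the data were seen. The scripts were tested on simulated data.

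Members and lists were chosen with earlier results of these data known. Values in every library are given for a fixed set of 11 genes and for up to 3 called members per comparison with the largest change and at least 1 TPM in the higher group. From each companion list the genes named are among the up to 3 called with the smallest p per comparison, and 1 gene that the rule names is not reported here. Same-numbered libraries did not deviate together, so the numbers were not taken to pair them. Exons of 11 of the 37 members overlap another gene, by at most 6.07% of their bases, and such reads cannot be told apart without strand. The deposited FPKM values were read only to check the counts.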

Additional observations from a re-analysis of the deposited data

Results flagged for a closer look

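Of 132 sets of 4 libraries examined (22 members in 6 groups), 3 held a library far from the other 3, and chance alone flags about 1 in 20 such sets. Col5a3 was flagged in young sham and in young 1 day lungs, where library 3 was the highest of its group, at 14.1 CPM and 55.5 CPM. Col6a5 was 20.1 CPM in library 3 of the old 1 day group and at most 0.642 CPM in the other 3.

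For 3 members the change from sham to 1 day differed between old and young lungs by the test of the difference itself (edgeR quasi-likelihood, adjusted over all genes). The old change minus the young change was -0.94 for Col16a1 (adjusted p = 0.00796), 0.84 for Col13a1 (adjusted p = 0.00444) and 4.22 for Col6a5 (adjusted p = 0.0346) on the log2 scale. That of Col6a5 was 0.00 without old 1 day library 3.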

How the results depend on the processing

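Calls of members changed with the setting at 1 h, between the sham groups and for the difference of changes between the ages. Of the 13 sham calls 7 held in every removal of 1 library, as did 5 of 10 in young and 2 of 4 in old 1 h lungs. Of the members called in young 1 h lungs, 10 in all, 6 were called with the length trend removed and 5 with GC and length removed together, an alternative chosen after seeing the data. In old 1 h lungs 8 were called in place of 4 by limma at either pseudocount. In the sham comparison 20 were called in place of 13 when only the 2 sham groups were fitted. For the difference between the ages, 1 was called in place of 0 at 1 h with the length trend removed, and 6 in place of 3 at 1 day with the GC trend removed. DESeq2 and the other filters kept every count within 1.5 times. On the TPM scale the median of all genes shifted, by -0.17 and -0.25 in young 1 h and -0.15 and -0.24 in young 1 day lungs against sham, at pseudocounts of 1 and 0.1. Without 1 library at a time the counts were 6 to 11 in young and 2 to 5 in old lungs at 1 h, 18 to 23 and 17 to 21 at 1 day, and 16 to 24 and 17 to 20 between 1 h and 1 day. They were 7 to 14 in sham, 17 to 22 at 1 h and 19 to 25 at 1 day between the ages, and 0 to 0 and 2 to 6 for the difference of changes at 1 h and 1 day. The sign turned for Col20a1 in young 1 day lungs, to 0.021 with the length trend removed. It turned for Col6a5 without old 1 day library 3, with a range over removals of -1.14 to 3.49 against old sham and -0.79 to 3.85 against old 1 h. It also turned for Col1a1 in old 1 day lungs (-0.15 to 0.51, library 1 of old 1 day deciding). Apart from these, the cause of each shift was not tested. Depth limits the genes under 1 TPM, such as Col6a5 and Col2a1.

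Same replicate numbers showed no pairing: the correlation of deviations had a median of -0.0085 over 60 pairs (-0.30 to 0.27) and 0.0063 for other pairs. With the replicate block 10, 3, 20, 20, 21 and 17 members were called in the 6 comparisons between times (young and old at 1 h, 1 day, and 1 day against 1 h). Between the ages 10 were called in sham, 19 at 1 h and 23 at 1 day, and for the difference of changes 0 and 2. With block and GC removal together, 1 was called for the difference at 1 h.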
